A study of Mus musculus with 2 samples.

Results

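The genes described here are the insulin-like growth factors Igf1 and Igf2, their receptors Igf1r and Igf2r, and the binding proteins Igfbp2 to Igfbp7, 10 genes of the 18193 named on an Affymetrix mouse array. Members were all probe sets, groups of short probes summarised into a single value, whose annotation gave exactly 1 gene symbol and that symbol was a member. This gave 28 probe sets, of 34945 with 1 symbol and 45037 in all. The tissue was epididymal white adipose tissue, a visceral fat depot that lies along the epididymis, of male C57BL/6 mice whose dietary challenge began at 9 weeks of age. The control sample came from a mouse on a normal chow diet, for which no duration is labelled, and the other from a mouse after 7 weeks on a high-fat diet. Neither group carries a transgene or drug in the labels, and no composition is given for either diet. Each diet had 1 array, so the diets cannot be tested against each other, and "higher" and "lower" compare these 2 samples only.

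IGF1 and IGF2 are small secreted hormones related to proinsulin that promote growth, survival and differentiation of cells. Both signal through the tyrosine kinase receptor encoded by Igf1r, while the product of Igf2r binds IGF2 without such signalling, carries it to lysosomes for breakdown, and also sorts lysosomal enzymes that bear mannose 6-phosphate. Binding proteins hold most of the hormone outside cells, lengthen its life in blood and either limit or aid its access to the receptor, until proteases cut them. In fat tissue, Igf1 is a target of growth hormone and is made by fat cells as well as by cells of the stroma, and the growth factors support the formation of fat cells from their precursors.

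Promoter sequences from RefSeq (GRCm38.p6) were available for all 10 genes, in 14 windows of the 250 bases before an annotated start. The table holds 4 alternative starts for Igf2 and 2 for Igfbp2. Windows of 4 genes are shown because their values below were the most different, Igf1, Igf1r and Igfbp7 on the lower side and Igfbp5 on the higher side. They lie at chr10:87860861-87861110 (plus strand), chr7:67952007-67952256 (plus strand), chr5:77408046-77408295 (minus strand) and chr1:72874866-72875115 (minus strand), and each is written 5′ to 3′ along its gene with matches in capitals.
Igf1: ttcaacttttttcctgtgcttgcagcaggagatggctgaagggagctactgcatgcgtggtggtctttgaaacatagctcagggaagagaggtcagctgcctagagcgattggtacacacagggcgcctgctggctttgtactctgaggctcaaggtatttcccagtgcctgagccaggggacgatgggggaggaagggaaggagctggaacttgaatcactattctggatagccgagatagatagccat
Igf1r: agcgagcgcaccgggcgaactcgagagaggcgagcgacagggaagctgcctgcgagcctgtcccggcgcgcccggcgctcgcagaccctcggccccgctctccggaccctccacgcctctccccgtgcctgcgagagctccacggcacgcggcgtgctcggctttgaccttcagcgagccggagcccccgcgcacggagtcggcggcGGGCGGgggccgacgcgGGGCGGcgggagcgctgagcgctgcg
Igfbp7: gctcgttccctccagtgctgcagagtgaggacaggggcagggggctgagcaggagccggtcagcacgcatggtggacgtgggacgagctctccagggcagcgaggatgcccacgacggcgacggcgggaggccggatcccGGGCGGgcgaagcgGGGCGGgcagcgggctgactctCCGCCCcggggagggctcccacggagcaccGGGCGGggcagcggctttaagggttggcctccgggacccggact
Igfbp5: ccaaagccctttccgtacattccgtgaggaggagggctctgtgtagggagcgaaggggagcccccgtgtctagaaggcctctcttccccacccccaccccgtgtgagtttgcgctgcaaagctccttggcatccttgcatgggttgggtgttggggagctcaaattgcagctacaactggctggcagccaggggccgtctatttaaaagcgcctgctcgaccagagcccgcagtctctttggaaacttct
Both strands were searched for TATAAA (the TATA box), GGGCGG (the GC box) and TTCNNNGAA (the pattern bound by STAT factors, which act below the growth hormone receptor), with matches allowed to overlap. The capitals mark 2 GC boxes in the Igf1r window and 4 in that of Igfbp7, and the windows of Igf1 and Igfbp5 held none of the 3 patterns. Of the 14 windows 6 held a GC box, 2 held TATAAA (Igfbp4 and Igfbp6) and 0 held TTCNNNGAA. Among all 32851 windows of this length in the table the shares were 32.7%, 12.4% and 7.02%. The window of Igf1r had a GC content of 77.6%, that of Igfbp7 74.0%, that of Igf1 52.8% and that of Igfbp5 58.8%. These matches describe the letters of the windows only.

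All 10 genes gave a measured signal. To count as measured, a probe set had to reach a floor for weak signal on at least 1 array. The floor was the 40th percentile of each array, an intensity of 28.6 for chow and 27.9 for the high-fat diet. Of the 28 probe sets 25 were above the floor on both arrays, 1 (of Igfbp7) on the chow array alone and 2 (of Igf1r and Igfbp7) on neither. Where a gene had several, the brightest by mean log2 intensity stood for the gene, a choice blind to the diets. On this basis 8 of the 10 genes differed by less than 0.5 log2 units, about the share over all measured genes (83.0%), and all 10 by less than 2-fold. The count of 8 includes Igfbp7 (-0.499) and Igfbp5 (0.496), just inside that limit. With quantile normalization Igfbp7 was at -0.60, and with median centring Igfbp5 was at 0.52. Across the 14066 measured genes of the array, 1.16% were 2-fold or more higher on the high-fat diet and 1.33% were 2-fold or more lower.

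**Figure D1:**
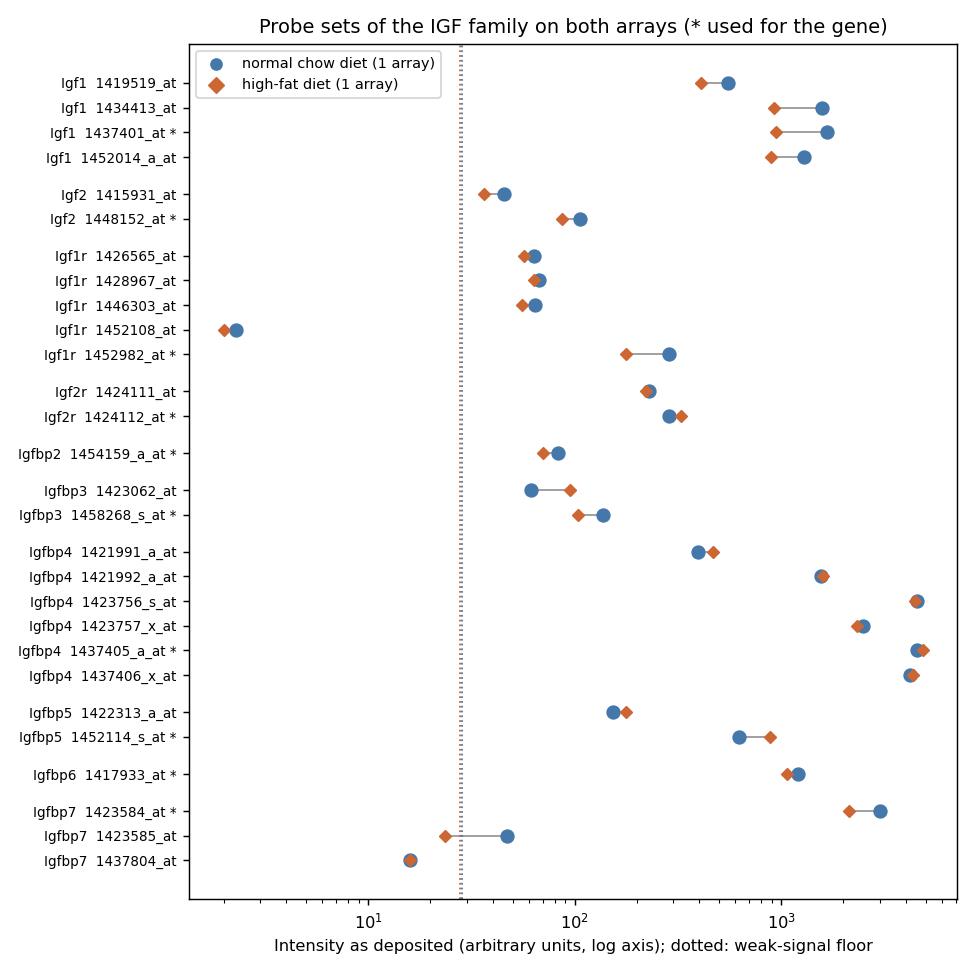
Deposited intensity (log axis) of each of the 28 member probe sets on the chow array (circles) and the high-fat diet array (diamonds), with the floor of each array dotted and an asterisk at the probe set used for the gene. All 4 Igf1 probe sets lie lower on the high-fat diet, while the 6 of Igfbp4 nearly coincide.

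At a size of 1.5-fold, 2 member genes were lower on the high-fat diet, Igf1 and Igf1r, against 6.33% of all measured genes. Given by its probe set of smallest difference, neither gene reached this size. None of the 10 was 1.5-fold or more higher, against 5.74% of all measured genes. In the brightest probe sets 7 genes were lower and 3 higher (Igf2r, Igfbp4 and Igfbp5), while 52.9% of all measured genes were lower and 46.8% higher, so this split says little about the family. It counts Igfbp3, Igf2r and Igfbp4, whose measured probe sets did not all share a direction. The split was 1 higher and 9 lower with the probe set of smallest difference, 4 higher and 6 lower with the mean of all probe sets, and 2 higher and 8 lower under lowess centring. The median difference of the 10 genes was -0.26 log2 units, with a median over all measured genes of -0.02. Counted by probe set, 18 of 26 measured ones were lower and 8 higher, where 52.5% of all measured probe sets were lower and 47.2% higher. Of these, 4 were 1.5-fold or more lower and 1 was 1.5-fold or more higher, beside 6.73% and 6.24% of all measured probe sets.

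**Figure D2:**
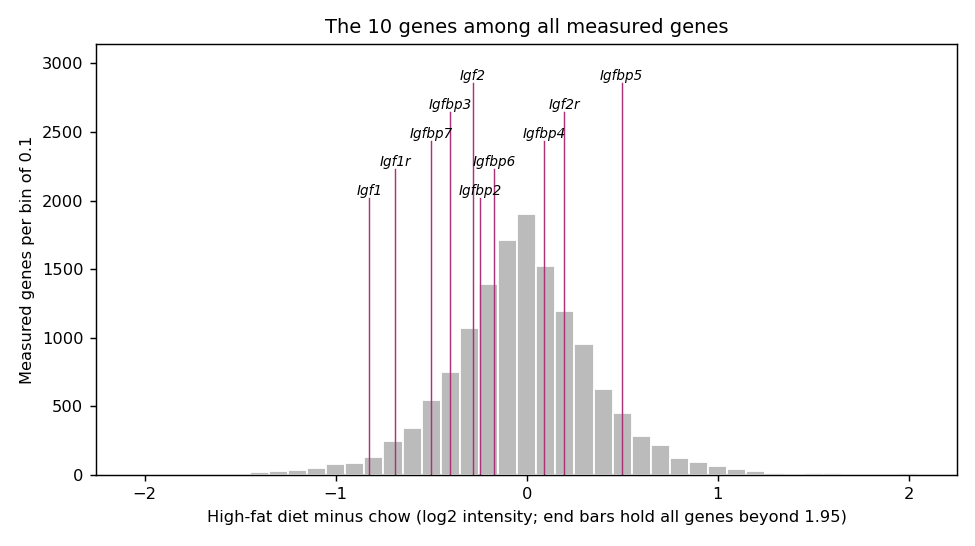
Histogram of the difference between the diets (log2 intensity, high-fat diet minus chow) for the 14066 measured genes, with lines at the 10 member genes. The members run from -0.82 (Igf1) to 0.50 (Igfbp5), with 2.55% of all measured genes at least as far lower as Igf1 and 4.16% as far lower as Igf1r.

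Of the ligands, Igf1 was the member with the most different signal. Its brightest probe set, 1437401_at, read 1669.4 on chow against 943.2 on the high-fat diet, a difference of -0.82 log2 units or 1.77-fold lower. Probe set 1434413_at read 1577.6 on chow against 924.6 on the high-fat diet, a difference of -0.77. The others, 1452014_a_at and 1419519_at, went from 1294 to 895.9 (-0.53) and from 553 to 409.9 (-0.43). The high-fat diet array was thus lower in 4 of 4 probe sets, with a mean of -0.64 ± 0.19 log2 units (SD over 4 probe sets of the same 2 samples, which are not replicates). Among the 602 genes with 4 measured probe sets, all 4 were lower in 16.1%. A yardstick for probe error is the pooled SD of probe set differences around the mean of their gene, which was 0.20 log2 units over the 534 genes with a mean intensity over 400 and 0.32 over all 5196 genes with several probe sets. It contains no difference between animals. Of all measured genes 358 (2.55%) were at least as far lower as Igf1. In a whole tissue, fewer cells that make a transcript and less of it per cell cannot be told apart.

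Igf2, the ligand best known as a growth factor of the fetus, was weak and differed little. Probe set 1448152_at read 105.6 on chow against 86.9 on the high-fat diet, and 1415931_at read 45.2 and 36.4. Both were lower on the high-fat diet, by -0.28 and -0.31 log2 units, which is less than the probe SD of 0.37 for genes of mean intensity under 100. About as large a lower value was common, since 21.5% of all measured genes lay at least as far down as Igf2.

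The signalling receptor Igf1r was lower in the brightest of its probe sets and close to even in the others. Probe set 1452982_at read 286.3 on chow against 177.7 on the high-fat diet, a difference of -0.69 log2 units or 1.61-fold lower. At least as far lower were 4.16% of all measured genes. The dimmer 1446303_at, 1426565_at and 1428967_at gave 64.5 and 55.3, 63.7 and 57, and 67.5 and 63.2, differences of -0.22, -0.16 and -0.09. All 4 measured probe sets shared the direction, but 3 of them were within the probe SD of 0.37. The mean over the 4 was -0.29 ± 0.27 (SD), so the call at 1.5-fold rests on 1 probe set. In the platform annotation 1452982_at and 1428967_at come from the same source sequence, yet their differences were -0.69 and -0.09. The last probe set, 1452108_at, was below the floor at 2.3 and 2.

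Igf2r, the clearance receptor, showed no common direction. Probe set 1424112_at read 286.1 on chow against 328 on the high-fat diet (0.20 log2 units higher), whereas 1424111_at read 227.7 and 222 (-0.04). Both values were within the probe SD of 0.29 for genes between 100 and 400. A further probe set annotated to Igf2r together with Airn, the antisense transcript that overlaps Igf2r, is outside the rule for members. It read 42.2 on chow and, under the floor, 12.1 on the high-fat diet.

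**Figure D3:**
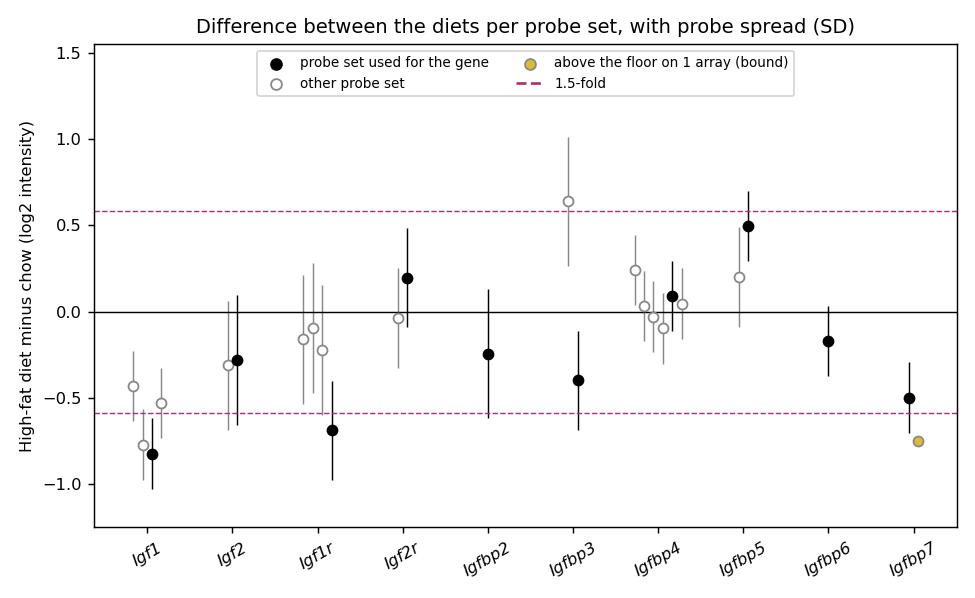
Difference between the diets (log2 intensity, high-fat diet minus chow) for each of the 26 measured member probe sets, with bars of the pooled SD of probe set differences for genes of similar intensity and dashed lines at 1.5-fold. Igf1 holds its direction in 4 probe sets, and the 2 probe sets of Igfbp3 lie on opposite sides of 0.

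Among the binding proteins Igfbp7 was the furthest below its chow value and Igfbp5 the furthest above. Igfbp7, a secreted protein of vessel walls with low affinity for the growth factors, read 3001.8 on chow against 2124.7 on the high-fat diet in probe set 1423584_at, 1.41-fold lower (-0.50 log2 units). A dimmer probe set, 1423585_at, read 46.9 on chow and, under the floor, 23.5 on the high-fat diet, a bound of at least 1.68-fold lower. The third, 1437804_at, stayed under the floor with 15.9 on each array. Of all measured genes 9.16% were at least as far lower as Igfbp7. It passed 1.5-fold under quantile normalization (-0.60), lowess centring (-0.59) and the mean of its probe sets (-0.62).

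Igfbp5, a matrix-bound protein abundant in connective tissue, went the other way in both of its probe sets. Probe set 1452114_s_at read 626.8 on chow against 884.2 on the high-fat diet, 1.41-fold higher (0.50 log2 units), and 1422313_a_at read 153.8 and 176.8 (0.20). The first value exceeded the probe SD of 0.20 for bright genes and the other did not exceed the 0.29 for its range. At least as far higher were 8.07% of all measured genes.

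Igfbp3 encodes the main carrier of IGF1 in blood, and its direction depended on the probe set. Probe set 1458268_s_at, the brighter, read 137.4 on chow against 104.2 on the high-fat diet (-0.40 log2 units), while 1423062_at read 61.1 and 95.1 (0.64, 1.56-fold higher). The gap between them was 1.04 log2 units. Of the 3129 genes with exactly 2 probe sets that reached the floor on each array, 3.80% had a gap at least this wide and the median gap was 0.27. Opposite directions as such were common, in 42.0% of genes with 2 measured probe sets. No direction is given for Igfbp3 for this reason.

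Igfbp4, an inhibitor of IGF action that fat cell precursors and fibroblasts secrete, was bright and nearly level. Its 6 probe sets read 394.1 to 4537.2 on chow and 465.4 to 4830.9 on the high-fat diet. Their differences ran from -0.10 to 0.24 log2 units, 4 higher and 2 lower, with a mean of 0.05 ± 0.11 (SD). In the brightest, 1437405_a_at, the readings were 4537.2 on chow against 4830.9 on the high-fat diet, a difference of 0.09.

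The remaining binding proteins had 1 probe set each. Igfbp6, which prefers IGF2 over IGF1, read 1205.4 on chow against 1070.5 on the high-fat diet (-0.17 log2 units). Igfbp2, a binding protein of the circulation known to be affected by leptin, read 82.9 and 70 (-0.24). Both lay within the probe SD of their range, 0.20 and 0.37. In the gene order of the RefSeq table, Igfbp2 and Igfbp5 are direct neighbours, and their values were 0.24 lower and 0.50 higher on the log2 scale. Igfbp3 lies beside Igfbp1, which is mainly a product of liver and read 34.8 on chow against 41.5 on the high-fat diet, little above the floor.

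Other genes of the system were taken from 6 lists with 66 genes in all, of which 57 were measured. They split evenly, 28 higher and 29 lower with a median of -0.0009 log2 units, and 5 were 1.5-fold or more higher and 4 lower, where 5.74% and 6.33% of all measured genes give counts near these. In the growth hormone axis, which drives Igf1 transcription, 8 of 8 genes were measured, 6 lower and 2 higher, where 52.9% of all measured genes were lower. The median was -0.14, and none was past 1.5-fold in the probe set used for the gene. Ghr, the growth hormone receptor, read 4998.9 on chow against 4506.8 on the high-fat diet (-0.15). Its feedback inhibitors Cish and Socs2, which are induced through STAT5, were at -0.37 and -0.16, and Stat5a itself was at -0.29. Stat5b was level in its brightest probe set (166.2 on chow, 166.1 on the high-fat diet) and at -0.81 in the other. Igfals, the subunit that holds IGF1 with IGFBP3 in a long-lived complex, read 234 on chow against 304.2 on the high-fat diet (0.38).

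Proteases known or proposed to cut binding proteins, and their inhibitors, had 6 genes higher and 4 lower of 10 measured. Of all measured genes 46.8% were higher and 52.9% lower. The list had a median of 0.13 (0.26 with the floor at the 60th percentile). Pappa, the protease of IGFBP4, was above the floor on the chow array alone, at 47.4 against 3.2, at least 1.70-fold lower. Its inhibitors Stc1 and Stc2, the stanniocalcins, were at -0.28 and -0.45, and the related protease Pappa2 at -0.36. In contrast, Htra1, a secreted serine protease, read 1044.1 on chow against 1540.3 on the high-fat diet (0.56), Prss23, another secreted serine protease, was at 0.53 in the brightest of 3 probe sets that were all higher, and Adam12, a protease of IGFBP3 and IGFBP5, was at 0.47.

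Secreted proteins that carry a domain like that of the binding proteins were higher in 8 of 9 measured cases, against 46.8% of all measured genes. Their median was 0.56 log2 units (0.15 when each gene is given by its probe set of smallest difference). One of them, Ccn6, was above the floor on the high-fat diet array alone (27.4 and 34.9) and so could only come out higher. Ccn5 was at 0.02. At 1.5-fold 4 of the 9 were higher and 1 lower, beside 5.74% and 6.33% of all measured genes. Ccn3, a matricellular regulator of cell growth, read 81.8 on chow against 172.7 on the high-fat diet, 2.11-fold higher, with 1.20 log2 units in its second probe set. Ccn1, a matricellular protein of wound repair, was 1.67-fold higher, from 110.5 to 184.2. Htra3, a protease related to Htra1, was 1.64-fold higher, although 1 of its 3 probe sets differed by -0.17. Kazald1 was 2.04-fold lower, from 58.5 to 28.7, just above the floor. Ccn4, Esm1 and Igfbpl1 did not reach the floor on either array.

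The list of receptor relatives and adaptors had 10 genes lower and 6 higher of 16 measured, with a median of -0.11. Of all measured genes 52.9% were lower, and 6.33% were lower by 1.5-fold or more. Beyond 1.5-fold were Pik3r1, the regulatory subunit of phosphoinositide 3-kinase, at -1.13, and Irs2, a docking protein of the insulin and IGF receptors, at -0.99. Irs1, the other main docking protein, read 578.8 on chow against 407.7 on the high-fat diet (-0.51). The insulin receptor gene Insr was at -0.26, and Foxo1, a transcription factor restrained by this pathway, at -0.58 with its 3 probe sets between -0.60 and -0.54. Its relative Foxo3 was at -0.55. Grb14, an adaptor that inhibits insulin receptor signalling, was at 0.48, and Irs4 at 0.41. The rest of the list was nearer to level: Akt1 (-0.11), Akt2 (0.15), Pik3ca (-0.12), Pdpk1 (0.11), Shc1 (0.02), Grb2 (-0.09), Grb10 (-0.15) and Gab1 (0.10). The probe sets of Akt1, Pik3ca, Pdpk1, Shc1 and Grb10 did not all share a direction.

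In the mannose 6-phosphate route that Igf2r serves, 8 genes were measured, 4 higher and 4 lower with a median of -0.0056 and none past 1.5-fold. M6pr, the smaller receptor of this route, read 962.8 on chow against 1142 on the high-fat diet (0.25). Gnptab, the catalytic subunit of the enzyme that makes the tag, was at 0.26. Gnptg, another subunit of that enzyme, was at -0.46 and weak, at 42.2 and 30.6. Among Igf2 mRNA-binding proteins and imprinted partners, 5 genes were lower and 3 higher of 8 measured, where 52.9% of all measured genes were lower. Peg3, an imprinted zinc finger gene, was 3.45-fold higher, from 230.6 to 795.3 and by 1.41 or more in each of 3 probe sets, whereas Ins2, the neighbour of Igf2, read 48.6 and 37.5. Airn was at -0.57 in the brightest of 3 probe sets that did not share a direction, Cdkn1c, an imprinted cell cycle inhibitor, at -0.42, and Dlk1, an inhibitor of fat cell formation, at 0.39. Igf2bp3, which binds Igf2 mRNA, was at -0.08, and Igf2bp1 was below the floor at 19.6 and 21.1.

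**Figure D4:**
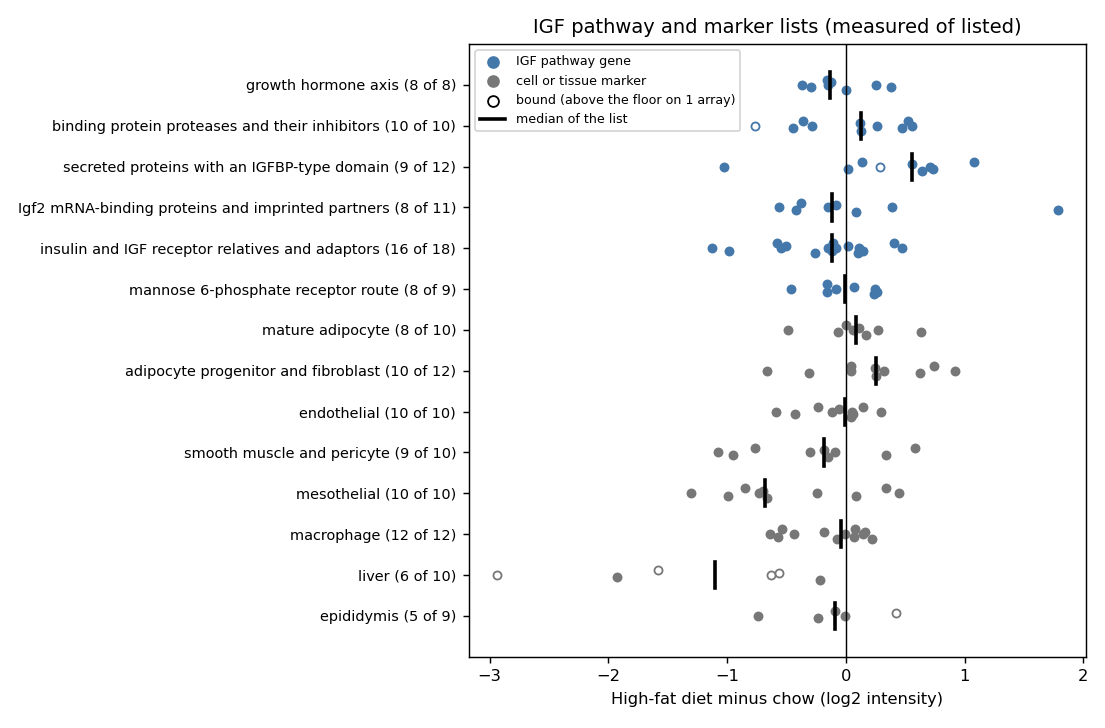
Difference between the diets (log2 intensity, high-fat diet minus chow) of each measured gene in the 6 pathway lists and 8 marker lists, with a black bar at each list's median and open points for bounds. The secreted proteins with a binding-protein domain have a median of 0.56 and the mesothelial markers one of -0.68.

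Markers of the cells that can make these transcripts were read on the same arrays. The counts below stand beside 46.8% of all measured genes higher and 52.9% lower. The defining genes of fat were bright, with Adipoq at 8372.1 and 8718.4, and the mature adipocyte list had 6 of 8 measured genes higher, a median of 0.08 (-0.04 under lowess centring) and summed intensities of 43342 on chow against 46408 on the high-fat diet. The widest differences in it were those of Lep (0.63) and Pparg (-0.49). Macrophages, a source of Igf1, had 5 of 12 markers higher and 7 lower with a median of -0.04, and sums of 10402 and 10244. Within that list Cd14, Mertk, Cd163 and Mrc1 were at -0.64, -0.58, -0.54 and -0.44, and Adgre1 at 0.07. Progenitor and fibroblast markers were higher in 8 of 10 cases (median 0.25), with sums of 15215 and 16689, led by Mfap5 (0.92), Col1a1 (0.74) and Dpt (0.62). Pdgfra was at -0.66 in the brighter of its 2 probe sets and at 0.19 in the other. Endothelial markers were at a median of -0.0074 (5 of 10 higher, sums 2817 and 2755), with Flt1 at -0.59, Emcn at -0.43 and Cldn5 at 0.30. Smooth muscle and pericyte markers were lower for 7 of the 9 measured, 3 of them by 1.5-fold or more (52.9% and 6.33% of all measured genes). Their median was -0.18 and their sums were 5975 and 5601. Myh11, Tagln and Myl9, genes of the contractile apparatus, were at -1.07, -0.95 and -0.76. Acta2 was higher, from 1476.2 on chow to 1866.2 on the high-fat diet (0.34), and Des was at 0.58, with 2.35 in its second probe set.

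Mesothelial markers were lower for 7 of 10 genes, 6 of them by 1.5-fold or more (52.9% and 6.33% of all measured genes), at a median of -0.68 (-0.25 with the floor at the 60th percentile) and with sums of 1940 and 1454. Bnc1, Krt19, Wt1 and Lrrn4 of this list were at -1.31, -0.99, -0.85 and -0.73, and Msln, the gene of mesothelin, at 0.45. On the high-fat diet Bnc1 read 27.9, at the floor, and Wt1 38.9, from 69.1 and 70 on chow. Genes of liver, the main source of circulating IGF1, were lower in 6 of 6 measured cases, with sums of 632.3 and 207. Of these, 4 were above the floor on the chow array alone and so could only come out lower. The other 2, Alb and Ttr, could take either direction, and 52.9% of all measured genes were lower. Apoa2 read 214.2 on chow against 13.1 on the high-fat diet, and Alb read 141.5 and 121.5. Ttr was at -1.93, from 108.7 on chow to 28.6 on the high-fat diet, just above the floor. The smallest difference among its 3 measured probe sets was -0.98. Apoa1 was at least 2.99-fold lower. Epididymis markers were weak, with 5 measured, 4 of them lower, a median of -0.09 and sums of 227.6 and 215.8, and Lcn8 had the widest difference at -0.74. The mesothelial, liver and smooth muscle lists thus had medians below 0, the side of Igf1, Igf1r and Igfbp7. So did the epididymis, macrophage and endothelial lists (-0.09, -0.04 and -0.0074), and the median of all measured genes was -0.02. The part of any of these lists in the member differences was not tested.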

How the data were processed

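Biotin-labelled cRNA from 10 µg of total RNA was hybridised to an Affymetrix mouse array (per the protocols in the labels) with 1 array per diet. The deposited table holds a linear intensity per probe set; how the authors summarised and scaled it is not given in the sources used here. Means after trimming 2% at each end were 99.6 on both arrays and the medians of log2 intensity differed by -0.03, under the limit of 0.1, so intensities were used as deposited. Values under the floor were raised to it, and a difference against it is a bound. Names come from GEO's platform annotation, dated 2016. Of 45037 probe sets, 34945 had 1 symbol, 932 several and 9160 none here, and 34741 matched RefSeq by gene ID. The members, lists and rules were chosen with earlier results of these data known. All 10 members are named with every probe set. Of each list, genes among the 4 with the largest differences are named, and others that define the list. Outside this rule, all 16 measured receptor relatives and adaptors are named, and Pnpla2 among the adipocyte markers. No gene was named for a pattern like a member's, which 2 arrays cannot measure. With 1 array per group no test was run, and 2 arrays limit the precision of every value. A difference is the log2 value on the high-fat diet less that on chow. The scripts (Python 3.11.15, pandas 2.3.3, statsmodels 0.14.6) were tested on simulated data. Alternatives changed the floor, the scaling and the choice of probe set.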

Additional observations from a re-analysis of the deposited data

How the results depend on the processing

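With 1 array per diet, no array could be left out. No paired analysis was possible because each diet has 1 array and the labels give no shared replicate numbers. Igf1, Igf2, Igf1r, Igfbp6 and Igfbp7 were lower in all 10 alternatives, Igf1 between -0.92 and -0.43 log2 units and Igfbp7 between -0.62 and -0.47. Igfbp2 was lower and Igfbp5 higher in the 9 that gave them a value. With the probe set of smallest difference Igf1 was at -0.43, Igf1r at -0.095, and 0 members were 1.5-fold or more lower; 3 were under quantile normalization and lowess centring, with Igfbp7 added. With the mean of all probe sets Igf1r was at -0.29 and Igfbp3 at 0.12, and the 2 members past 1.5-fold were Igf1 and Igfbp7. With plain probe sets only (no suffix letter) Igfbp3 was at 0.64, which made 1 member 1.5-fold or more higher, and Igfbp2, Igfbp4 and Igfbp5 had no value. The median of the list of Igf2 mRNA-binding proteins and imprinted partners was 0.00027 with the probe set of smallest difference, -0.22 with the mean of all, -0.42 with plain probe sets and -0.11 with the brightest. Centring on reference genes moved all differences by -0.07 and the split of genes 2-fold or more different to 123 higher and 253 lower, from 163 and 187. That count was 598 and 713 with the floor at the 20th percentile, 88 and 65 at the 60th, and 247 and 268 with no floor and a pseudocount of 16. In all, 438 of 462 recomputed values stayed within the limits set (the probe spread for differences, 0.1 for list medians, 1.5 times for counts). Some of these could move little by design. A changed floor left bright probe sets as they were (Igf1 at -0.82 with either), and centring on reference genes moved all differences alike. The count therefore says little about how firm a value is. Sign changes within the limits include Igfbp4 at -0.02 (lowess centring) and -0.03 (smallest difference) and Igf2r at -0.04 (smallest difference). Igfbp3 (-0.47 to 0.64) and Igf1r (-0.76 to -0.095) varied most.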

Other observations

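The antisense genes of the ligands have probe sets of their own. Igf2os, the antisense RNA of Igf2, read 31.1 on chow against 38.2 on the high-fat diet. Igf1os read 28.4, below the floor, on chow against 35.5 on the high-fat diet. Igf2os was higher on the high-fat diet by 0.30 log2 units, less than the probe SD of 0.37 for weak genes, where the probe sets of Igf2 read lower. Igf1os was higher by at least 0.31. Above the floor on the high-fat diet array alone, it could only come out higher. The antisense genes were chosen after their values were seen.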
